A study of Danio rerio with 4 samples.

Results

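The collagens are the family of extracellular proteins that give vertebrate tissues their tensile strength, and their transcripts were examined here in 4 RNA-seq libraries of EGFP-positive cells from the adult zebrafish brain. Members were all Ensembl gene IDs of the count table whose zebrafish symbol begins with "col", a number, "a" and a further number, with case ignored. Of the 57 IDs that the name table pairs with such a symbol, 56 were in the count table, out of 32105 IDs in all. They were placed in 7 classes by the structure their chains form or, for cartilage, by tissue. These were 9 fibrillar, 12 of cartilage, 12 of basement membranes, 4 of beaded filaments, 8 fibril-associated (FACIT), 4 transmembrane and 7 other IDs. The cartilage class holds the fibril-forming types II and XI and the fibril-associated type IX. The classes called fibrillar and FACIT below leave these types out.

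A collagen molecule is a triple helix of 3 chains, which may be identical or the products of different genes, so chains of a molecule are often transcribed together. Types I and V build the banded fibrils of bone, skin and connective tissue. Types II, IX and XI build the thinner fibrils of cartilage and of the notochord sheath, and type X is made by hypertrophic chondrocytes and, in fish, also by osteoblasts. Type IV forms the meshwork of the basement membrane that pericytes and endothelium share around capillaries, types XV and XVIII sit in the same layer, and type VI forms beaded filaments at its outer face. Zebrafish carry many of these genes as a pair of copies, which the suffixes a and b mark.

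The cells came from adult fish labelled wildtype that carry the transgene pdgfr beta egfp, in which regulatory sequence of the receptor gene pdgfrb drives EGFP. That receptor marks pericytes, the mural cells of capillaries, and is also made by other perivascular cells and fibroblasts, so the sort need not hold pericytes alone. Brains were dissociated with the enzyme mix Liberase and sorted by fluorescence, each library pooled 6 brains, and RNA was amplified before sequencing. All 4 samples form a single group, whose titles say pericyte although a cell type tag reads muLEC (mural lymphatic endothelial cell); the design text counts 3 preparations.

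The names B1 to B4 are those of the table's columns, which carry no sample number. Depth ran between 33270774 and 40441253 counts, and 3 counts corresponded to between 0.0751 and 0.0879 CPM (the count relative to the TMM-scaled depth of its library), a floor for counting error only. No library was a copy of another: the chi-square per degree of freedom was 675 to 774 for the pairs that include B1 and 116 to 169 for the other pairs, so B1 stood apart. PDGFRB, the gene behind the sort, had 219, 76.0, 121 and 46.0 CPM in B1 to B4. The summed pericyte list (21 IDs) had 2265, 1674, 1213 and 987 CPM, and the radial glia list (17 IDs) had 28440.3, 53058, 47874 and 50549 CPM. Each p-value below tests a mean level or mean ratio, with the spread between 4 pools as its error, and that spread may be partly technical. The 4 are treated as independent, although with 3 preparations named some libraries may share one. In such bulk RNA, fewer cells of a type and less RNA per cell cannot be told apart.

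Collagen transcripts took a small and unsteady share of the RNA. The 56 IDs together had 1754, 2716, 5603 and 785 CPM in B1 to B4, which is 0.180%, 0.257%, 0.583% and 0.0776% of all counts. B3 was highest and B4 lowest, a range of 7.14-fold. Without B3 the mean of 2715 CPM became 1752 CPM.

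The classes did not vary alike. The fibrillar class summed to 1235, 769.5, 4338 and 393 CPM in B1 to B4, and the cartilage class to 221, 1503, 1022 and 93.4 CPM. The fibrillar sum was thus highest in B3 and the cartilage sum in B2, and both were lowest in B4, over ranges of 11.0-fold and 16.1-fold. A few chains weighed most in these sums. The 3 type I IDs made up 1093, 656, 4178 and 301 CPM of the fibrillar sum in B1 to B4. Of the cartilage sum, COL2A1 (ENSDARG00000069093) made up 886 CPM in B2 and type X chains 689 CPM in B3. Without B3 the fibrillar mean of 1684 CPM became 799 CPM, and without B2 the cartilage mean of 709.8 CPM became 446 CPM. The basement membrane class had 111, 137, 95.6 and 134 CPM, a range of 1.43-fold, and the beaded filament class 68.7, 165, 54.9 and 79.6 CPM, a range of 3.01-fold.

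As a share of collagen counts, fibrillar chains held 70.4%, 28.3%, 77.4% and 50.1% in B1 to B4, and cartilage chains 12.6%, 55.3%, 18.2% and 11.9%. Cartilage chains thus took more counts than fibrillar chains in B2 alone of the 4 libraries. Basement membrane chains held 6.31%, 5.04%, 1.71% and 17.0%, a share that was highest in B4, where the collagen total was lowest. Longer transcripts give more reads, so the shares weigh each class by transcript length as well as by transcript number.

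**Figure D1:**
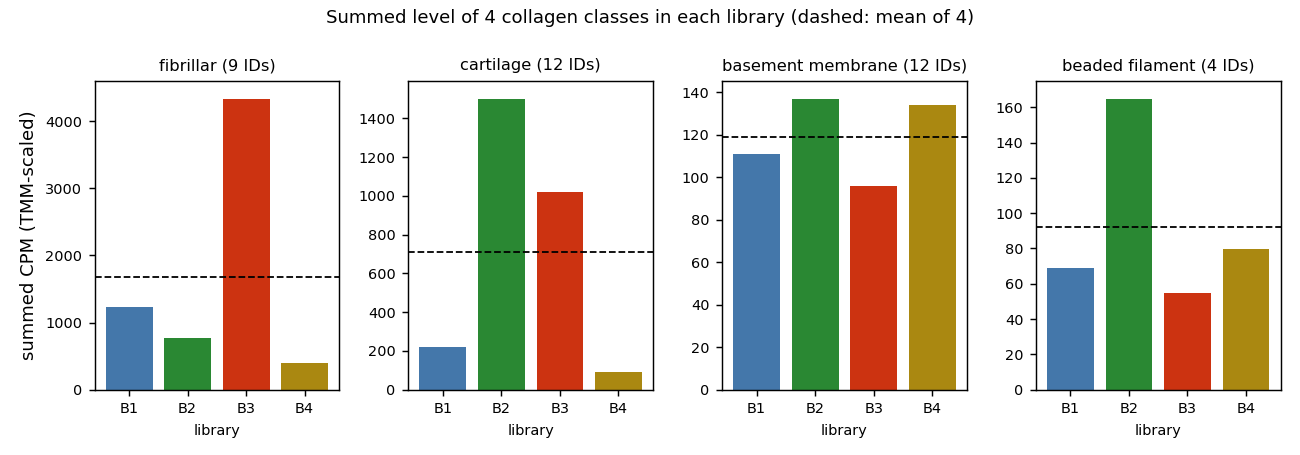
Summed CPM of the fibrillar, cartilage, basement membrane and beaded filament collagens (vertical axes, each from 0 with its own scale) in libraries B1 to B4 (bars), with the mean of the 4 libraries as a dashed line. The fibrillar bar of B3 reaches 4338 CPM and the cartilage bar of B2 1503 CPM, while the basement membrane bars stay between 95.6 and 137 CPM.

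Each gene's level was tested against the median fitted level of all 17283 genes that reached 1 CPM in at least 2 libraries, 12.6 CPM, called the reference level. Of the 56 members 40 passed that filter. By edgeR's quasi-likelihood test at a Benjamini-Hochberg adjusted p under 0.05, 17 of the 40 stood above that level, 7 stood below and 16 did not pass; of all genes tested, 36.8% lay above and 33.2% below. Their median stood 0.49 log2 units above the reference level, where the median of all genes is 0.00 by construction. Levels are in CPM without a correction for transcript length, since no transcript lengths of the files' build were at hand, so a call depends on length as well as on transcript number. By class, 5 of 7 tested fibrillar genes lay above and 0 below, 6 of 12 cartilage genes above and 1 below, 2 of 7 basement membrane genes above and 2 below, and 2 of 4 beaded filament genes above and 0 below. At an unadjusted p under 0.05, edgeR placed 1 fibrillar and 0 beaded filament genes below, and with adjustment DESeq2 and limma-voom placed 1 and 0 there. The cartilage count above was 2 by limma-voom, 2 without B3 and 4 without B2, and 3 cartilage genes lay below without B2. The beaded filament count above was 1 without B2 and 1 without B4.

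Type I collagen, the main fibril of bone and connective tissue, is encoded in the table by 3 IDs. COL1A2, the alpha-2 chain, had 356, 245, 1572 and 136 CPM in B1 to B4 (mean 577 ± 669, SD, n = 4 here and below). The alpha-1 gene col1a1a had 336, 222, 1375 and 100.1 CPM, and COL1A1, the ID whose symbol carries no copy suffix, had 400.5, 189, 1232 and 64.7 CPM. All 3 were highest in B3 and lowest in B4, over 11.5-fold to 19.0-fold. Their levels stood 5.51 ± 0.57 (SE), 5.33 ± 0.58 and 5.22 ± 0.61 log2 units above the reference level for COL1A2, col1a1a and COL1A1 (edgeR adjusted p = 3.36e-06, 5.09e-06 and 7.93e-06). Without B3 their means were 246, 219 and 218 CPM, and each stayed above the reference level in every setting run. Reads of near-identical stretches could have been split between col1a1a and COL1A1, so the level of each is uncertain on its own.

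Type V collagen, a minor component that starts fibrils and limits their width, behaved otherwise. COL5A1 had 83.6, 80.6, 52.3 and 62.0 CPM (mean 69.6 ± 15.0), 2.46 ± 0.22 log2 units above the reference level (with edgeR, adjusted p = 2.12e-05). Its libraries lay within 1.60-fold of each other, with B3, the highest library for type I, the lowest. COL5A2, its partner chain, had 50.0, 17.6, 32.0 and 22.1 CPM and stood 1.27 ± 0.29 log2 units above (edgeR adjusted p = 0.00414). Both of these calls held in every setting run.

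The second alpha-2(V) copy, col5a2b, was instead highest in B3 and lowest in B4, as type I was. Unlike the type I genes, it was lower in B1 than in B2. It had 6.56, 8.26, 74.5 and 0.0501 CPM in B1 to B4, where the value of B4 rests on 2 counts and lies under the floor of 3. B3 was at least 992-fold higher than B4, taken against the floor of 3 counts in that library, and 9.02-fold higher than the next library. Its mean of 22.3 CPM was 4.96 CPM without B3, and its level passed on neither side of the reference level (edgeR adjusted p = 0.453). The type V gene col5a3a had 0.762, 6.69, 1.73 and 8.11 CPM, with B2 and B4 the higher libraries. It lay 1.55 ± 0.55 log2 units under the reference level without passing (edgeR adjusted p = 0.0681), while DESeq2 and limma-voom did place it below. The copy col5a3b reached at most 0.762 CPM.

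Type II collagen, the main fibril of cartilage, has 2 IDs under the symbol COL2A1. ENSDARG00000069093 had 22.7, 886, 84.9 and 13.5 CPM in B1 to B4 (mean 252 ± 424), and ENSDARG00000011407 had 80.5, 118, 58.6 and 51.3 CPM (mean 77.2 ± 30.1). Both were highest in B2 and lowest in B4, over 65.5-fold for the first and 2.31-fold for the other. They stood 4.32 ± 0.92 and 2.61 ± 0.27 log2 units above the reference level (with edgeR, adjusted p = 3.80e-04 and 3.71e-05). Without B2 the mean of ENSDARG00000069093 was 40.4 CPM, and edgeR still placed it above; DESeq2 gave it no adjusted p.

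Type IX collagen coats the type II fibril, and its 4 IDs were all highest in B2. COL9A2 had 7.94, 119, 23.9 and 5.81 CPM, and col9a3 had 1.79, 37.5, 6.48 and 4.75 CPM. The alpha-1 copies were COL9A1, with 0.967, 32.6, 21.5 and 1.1 CPM, and col9a1b, with 0.879, 83.7, 1.45 and 4.1 CPM. B2 was thus above every other library in each chain, by 1.52-fold over the next library in COL9A1 and by 20.4-fold in col9a1b. The alpha-1 copies differed in B3, where COL9A1 was near its B2 level and col9a1b was near its level in B1. COL9A2 alone of the 4 passed, 1.63 ± 0.70 log2 units above the reference level (with edgeR, adjusted p = 0.0386). That call was lost without B2 (-0.10 log2 units, edgeR adjusted p = 0.864) and by limma-voom (0.73 log2 units, adjusted p = 0.365). Without B3 the level was 1.72 log2 units but did not pass (adjusted p = 0.0607). Without B2 the mean of COL9A2 was 12.5 CPM. The means of COL9A1, col9a1b and col9a3 without B2 were 7.85, 2.15 and 4.34 CPM, against 14.0, 22.5 and 12.6 CPM with it, and col9a1b and col9a3 then lay below the reference level (edgeR adjusted p = 0.0152 and 0.0352). The chains of types II and IX summed to 115, 1277, 197 and 80.6 CPM in B1 to B4.

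Type XI collagen sits inside the type II fibril. COL11A1 had 22.6, 87.8, 29.0 and 5.36 CPM in B1 to B4 and stood 1.52 ± 0.55 log2 units above the reference level (with edgeR, adjusted p = 0.0226). It was highest in B2, and the call was lost without B2 (0.50 log2 units, edgeR adjusted p = 0.360, mean 19.0 CPM against 36.2 CPM) and by limma-voom (1.03 log2 units, adjusted p = 0.151). Without B3 the level was the same, 1.52 log2 units, and narrowly missed the threshold (adjusted p = 0.0510). COL11A2 was instead highest in B3, with 10.5, 46.7, 94.1 and 0.475 CPM, a range of 198-fold, and did not pass (edgeR adjusted p = 0.0824). It did pass as above without B1 (adjusted p = 0.0469) and without B4 (adjusted p = 0.0119), and its mean was 19.2 CPM without B3 against 38.0 CPM with it. The copy col11a1b had 2.29, 14.8, 9.75 and 2.00 CPM. The related cartilage gene col27a1b had 1.90, 6.74, 3.41 and 3.68 CPM, and it lay 1.68 ± 0.34 log2 units under the reference level (-1.68, edgeR adjusted p = 0.00968).

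Type X collagen also has 2 IDs, both named COL10A1, and these had the widest range of the members with a count above the floor in each library. ENSDARG00000054753 had 21.9, 47.1, 393 and 0.676 CPM, and ENSDARG00000101535 had 47.0, 22.2, 296 and 0.651 CPM in B1 to B4. B3 was 582-fold and 455-fold above B4, where they had 27 and 26 counts. Together they had 68.9, 69.3, 689 and 1.33 CPM, so B1 and B2 were alike, B3 was high and B4 was low. They stood 3.20 ± 1.03 and 2.86 ± 0.98 log2 units above the reference level (with edgeR, adjusted p = 0.00498 and 0.00804). Both calls were lost without B3, at 0.79 log2 units (edgeR adjusted p = 0.394 each) and means of 23.2 and 23.3 CPM, and by limma-voom (0.99 and 0.88 log2 units, adjusted p = 0.509 and 0.547).

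**Figure D2:**
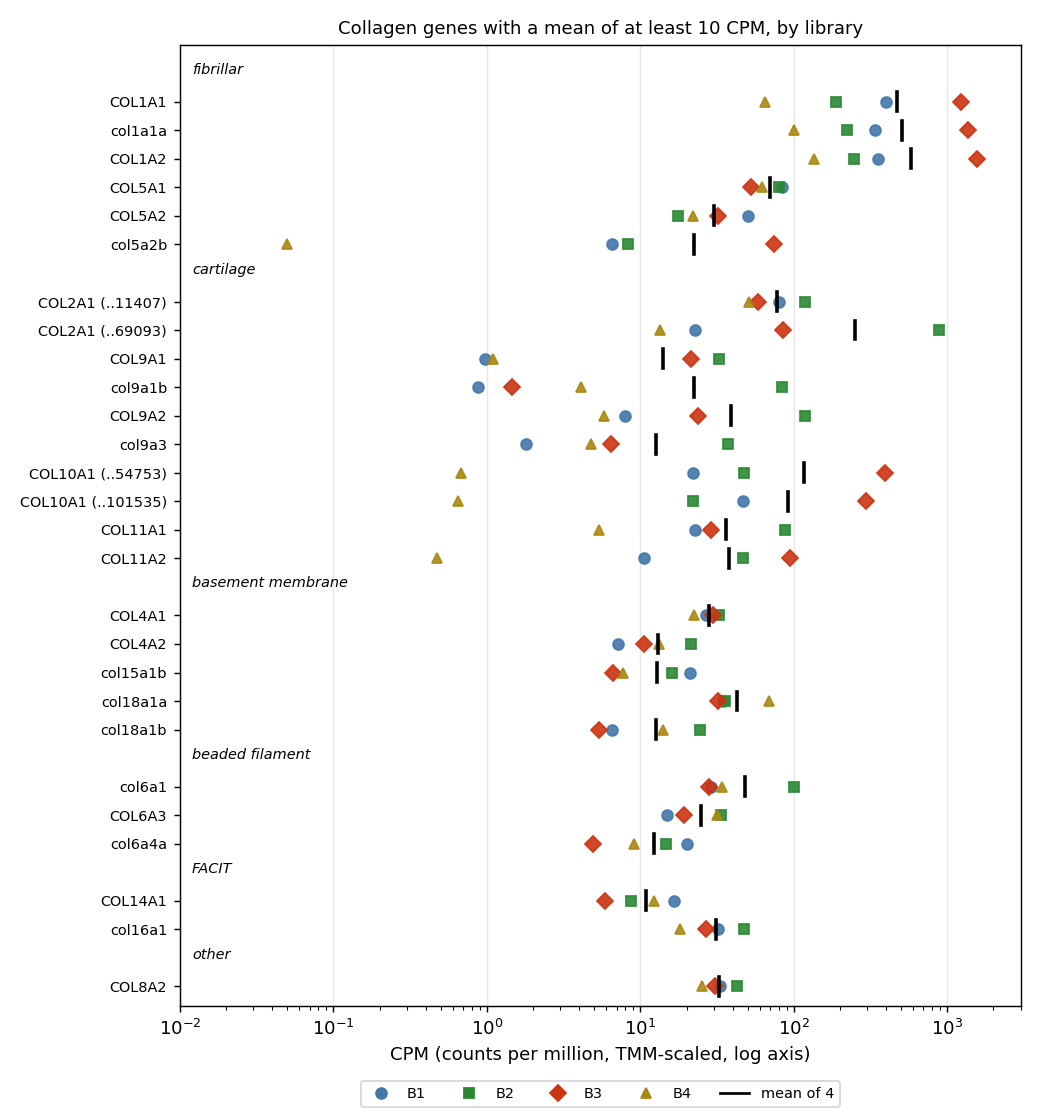
CPM on a log axis of the 27 collagen genes with a mean of at least 10 CPM, by class, with 1 symbol for each library B1 to B4 and a black bar at the mean of 4. The type I genes reach 1232 to 1572 CPM in B3 (diamonds), COL2A1 (ENSDARG00000069093) reaches 886 CPM in B2 (squares), and both COL10A1 IDs lie under 1 CPM in B4 (triangles).

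As a sum the basement membrane collagens had the narrowest range of the 7 classes, though single tested genes ranged up to 4.55-fold. COL4A1, which with COL4A2 makes the common type IV network, had 26.8, 32.7, 29.8 and 22.3 CPM in B1 to B4 (mean 27.9 ± 4.45). COL4A2 had 7.15, 21.3, 10.5 and 13.3 CPM (mean 13.1 ± 6.06). The libraries of COL4A1 lay within 1.47-fold, and it stood 1.14 ± 0.20 log2 units above the reference level (with edgeR, adjusted p = 0.00156), in every setting run. COL4A2 passed on neither side (0.05 ± 0.30 log2 units, edgeR adjusted p = 0.890). The other type IV chains, which in mammals serve kidney, eye and a few other sites, stayed at or under 5.45 CPM. Of these, col4a6 had 5.45, 2.79, 2.91 and 2.70 CPM and lay below the reference level (-1.87 ± 0.30 log2 units, edgeR adjusted p = 0.00365), and col4a3, COL4A4 and col4a5 failed the filter.

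Type XVIII collagen, whose C-terminal fragment is endostatin, held the other gene of this class above the reference level. This gene, col18a1a, had 34.6, 35.7, 32.2 and 68.8 CPM (mean 42.8 ± 17.4), 1.76 ± 0.26 log2 units above (edgeR adjusted p = 4.55e-04). It was the one member above the reference level whose highest library was B4, while B1 to B3 lay close together. Its copy col18a1b had 6.53, 24.5, 5.39 and 14.1 CPM, and the type XV gene col15a1b had 21.2, 16.0, 6.59 and 7.73 CPM. Neither of these passed (edgeR adjusted p = 0.999 and 0.948). The type VII gene col7a1l (ENSDARG00000069692), of the anchoring fibril family, had 4.60, 2.55, 5.84 and 3.48 CPM and lay below the reference level (-1.62 ± 0.29 log2 units, edgeR adjusted p = 0.00560).

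Of the beaded filament genes, col6a1 had 28.8, 101, 27.9 and 34.3 CPM in B1 to B4, and its partner COL6A2 had 4.69, 15.9, 2.79 and 4.48 CPM. In both, B2 stood apart and the other libraries lay close together. The level of col6a1 stood 1.92 ± 0.37 log2 units above the reference level (with edgeR, adjusted p = 0.00134), with a mean of 47.9 CPM, or 30.3 CPM without B2. COL6A2 did not pass (-0.86 log2 units, edgeR adjusted p = 0.149), though without B2 it lay below the reference level (adjusted p = 0.0137), with a mean of 3.99 CPM against 6.96 CPM.

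The third chain of the common type VI molecule, COL6A3, had 15.0, 33.7, 19.2 and 31.8 CPM and was high in both B2 and B4. It stood 0.98 ± 0.27 log2 units above the reference level (with edgeR, adjusted p = 0.00941), a call lost without B2 (0.72 log2 units, adjusted p = 0.0815) and without B4 (0.76 log2 units, adjusted p = 0.0884). The alternative chain gene col6a4a had 20.2, 14.8, 4.94 and 9.08 CPM, highest in B1 and lowest in B3, and passed on neither side (edgeR adjusted p = 0.921).

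The FACIT collagens decorate other fibrils rather than form their own. Of 8 IDs 5 were tested, with 1 above the reference level and 2 below it. That above was col16a1, with 31.9, 47.2, 26.8 and 18.2 CPM (1.30 ± 0.27 log2 units, edgeR adjusted p = 0.00256). COL14A1, of tendon and skin fibrils, had 16.5, 8.75, 5.92 and 12.2 CPM, and COL12A1 (ENSDARG00000078322), of dense connective tissue, had 14.5, 4.44, 8.30 and 9.53 CPM. Both were highest in B1 and passed on neither side (edgeR adjusted p = 0.528 and 0.240). Those below were col14a1b, with 5.10, 1.71, 2.85 and 1.88 CPM, and COL12A1 (ENSDARG00000019601), with 2.49, 2.19, 1.68 and 2.88 CPM, at -2.13 and -2.45 log2 units (edgeR adjusted p = 0.00481 and 0.00120). That last ID, like col17a1b in the next paragraph, was named after its values were seen. Without B1, COL12A1 (ENSDARG00000078322) also lay below the reference level (adjusted p = 0.0402).

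Transmembrane collagens are anchored in the cell membrane, and 3 of 4 were tested, with 0 above and 2 below the reference level. At an unadjusted p under 0.05 edgeR also placed 0 of them above, as did DESeq2 and limma-voom. Of the pair in type XXIII, col23a1a had 1.29, 11.3, 1.01 and 7.51 CPM and col23a1b had 3.52, 10.9, 3.85 and 4.55 CPM. Both were highest in B2. With edgeR col23a1a did not pass (adjusted p = 0.139). DESeq2 and limma-voom placed it below (adjusted p = 0.0401 and 0.0384), so that all 3 tested genes lay below by each of these tests. The level of col23a1b lay below (-1.14 ± 0.35 log2 units, edgeR adjusted p = 0.0364), a call lost without B3 and without B4, where the level barely moved (-1.08 and -1.13 log2 units, adjusted p = 0.0937 and 0.0990). The hemidesmosome collagen gene col17a1b also lay below (-3.83 ± 0.67 log2 units, edgeR adjusted p = 0.00965), with 1.55, 1.57, 0.0559 and 0.375 CPM. Its value in B3 rests on 2 counts, under the floor of 3. In each fit that left out a library 1 gene lay below, but not the same gene. It was col23a1b without B1 and without B2 (edgeR adjusted p = 0.0467 and 0.0108), where col17a1b failed the filter and 2 genes were tested. Without B3 and without B4 it was col17a1b.

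The remaining class holds type VIII, a short-chain collagen of vessel walls and the cornea, and type XXVIII. COL8A2 had 33.1, 42.4, 30.5 and 25.4 CPM (mean 32.8 ± 7.10), and it stood 1.38 ± 0.21 log2 units above the reference level (with edgeR, adjusted p = 7.55e-04), in every setting run. COL8A1, its partner chain, had 4.92, 8.21, 8.04 and 1.43 CPM and did not pass (edgeR adjusted p = 0.0624), though DESeq2 and limma-voom placed it below (adjusted p = 0.0136 and 0.0364). The ID named col8a1a had 1.32, 0.0271, 0.810 and 0.200 CPM. In all 16 members failed the filter, 7 of them with a library at 0 counts, and none of their values exceeded 1.73 CPM.

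The spread between libraries separated the classes further. The biological coefficient of variation (BCV) is edgeR's estimate of a gene's relative SD between libraries beyond counting noise, drawn towards a trend with abundance. Its median was 0.989 for the 12 cartilage genes, 0.820 for the 3 transmembrane genes, 0.788 for the 7 fibrillar genes and 0.549 for the 4 beaded filament genes. It was 0.506 for the 2 genes of the remaining class, 0.479 for the 7 basement membrane genes and 0.473 for the 5 FACIT genes, against 0.477 for all genes tested. A BCV of at least 1 was found for 7 of 40 collagen genes, against 1.43% of all genes tested. These were COL2A1 (ENSDARG00000069093) at 1.17, COL9A1 at 1.05, col9a1b at 1.26, COL10A1 at 1.27 (ENSDARG00000054753) and 1.22 (ENSDARG00000101535), COL11A2 at 1.11 and, among the fibrillar genes, col5a2b at 1.32. Basement membrane genes ran between 0.388 and 0.586, and FACIT genes, here without type IX, between 0.452 and 0.543. The count of 7 was 4 without B2 and 2 without B4, fits for which no such share of all genes was computed.

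**Figure D3:**
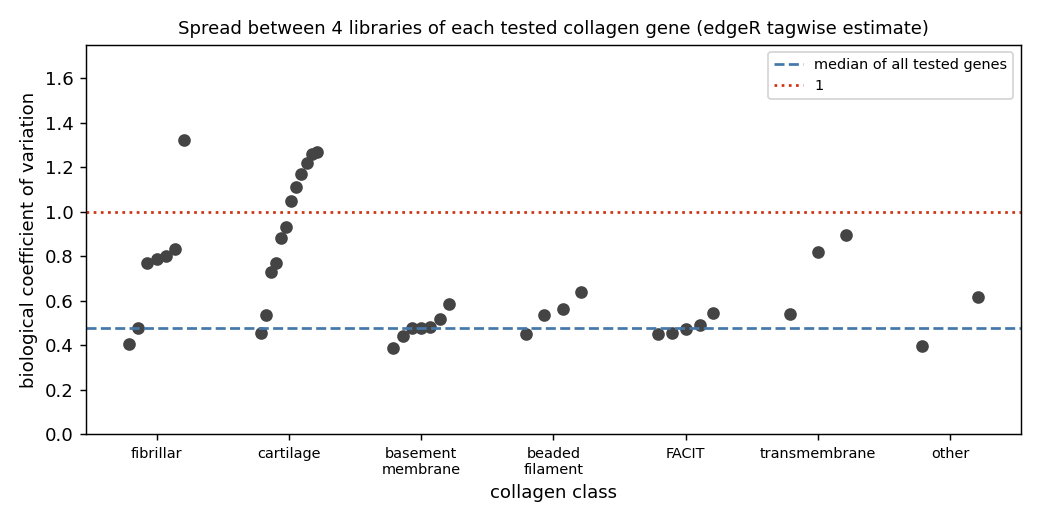
Biological coefficient of variation between the 4 libraries (vertical axis, from 0) of each of the 40 tested collagen genes (points, sorted within a class), with the median of all tested genes, 0.477, as a dashed line and a value of 1 as a dotted line. Of the points on or over the dotted line 6 are cartilage genes and 1 is fibrillar, and all basement membrane genes lie at or under 0.586.

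The library in which a gene was highest was also counted. Of the 40 tested members 21 were highest in B2 and 8 each in B1 and B3, with 3 in B4; of all genes tested, the shares highest in B1 to B4 were 36.0%, 24.8%, 20.0% and 19.2%. The B3 share of members, 20.0%, equalled that of all genes. Of the members 17 were lowest in B4, against 15.5% of all genes, and 8 in B1, against 43.7%. Of the 12 cartilage genes 9 were highest in B2 and 3 in B3, with 8 lowest in B4 and 4 in B1. Of the 7 fibrillar genes 4 were highest in B3 and 4 lowest in B4.

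**Figure D4:**
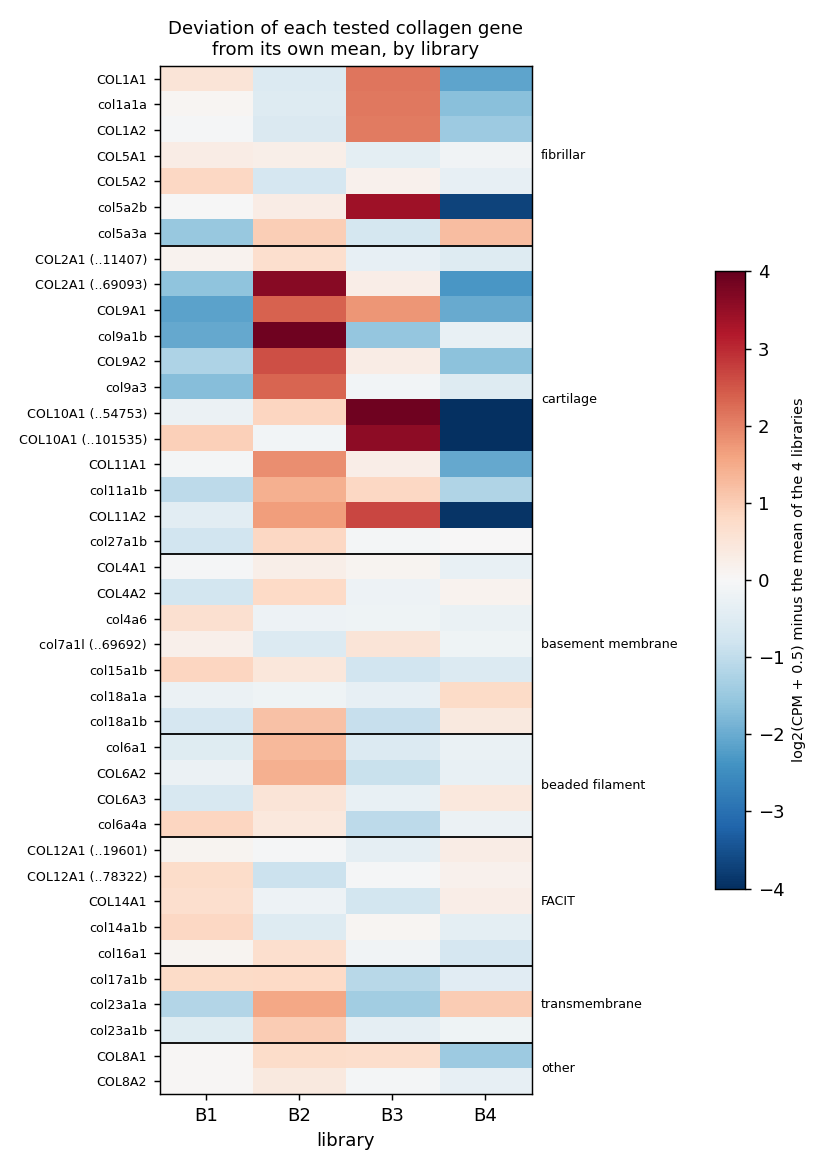
Deviation of log2(CPM + 0.5) from the gene's own mean over B1 to B4 for the 40 tested collagen genes, by class, with red above and blue below the mean and colours saturated at -4 and 4. Type I and X genes and col5a2b are red in B3, the type II and IX genes are red in B2, and most basement membrane rows are pale throughout.

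Chains that form a molecule together were then set against each other within each library, where depth cancels. Of 36 pairs of chains or gene copies, 25 had both genes at a mean of at least 1 CPM. The log2 ratio of col1a1a over COL1A2 was -0.09, -0.14, -0.19 and -0.44 in B1 to B4, with an SD of 0.16, while the levels of these genes had SDs of 1.58 and 1.50 log2 units. The ratio was thus close to constant while both chains moved over more than 10-fold. COL1A1 over COL1A2 was less even, at 0.17, -0.38, -0.35 and -1.07 (SD 0.51). For col6a1 over COL6A2 the log2 ratio was 2.62, 2.66, 3.31 and 2.93 (SD 0.32, against 0.87 and 0.99 for the genes). The ratio of col9a3 over COL9A2 had an SD of 0.83, against 1.70 and 1.92 for the genes.

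For other partners the ratio was not steadier than both genes. COL4A1 over COL4A2 had log2 ratios of 1.90, 0.61, 1.51 and 0.74 (SD 0.62), an SD above that of COL4A1 (0.23) and near that of COL4A2 (0.63). COL5A1 over COL5A2 had an SD of 0.70, against 0.32 and 0.65 for the genes. The SDs of these ratios were still below the 0.83 of col9a3 over COL9A2, whose genes varied more. COL11A1 over COL11A2 was 1.1, 0.91, -1.70 and 3.46 (SD 2.11), lowest in B3 and highest in B4. Over the 15 pairs of chains the ratio was steadier than both genes in 6 and more variable than both in 4. Of these, col15a1b over col18a1a and over col18a1b set different collagen types against each other, and both were more variable. For the 10 pairs of copies the counts were 3 and 3. Over all 25 pairs they were 9 and 7, and the median SD of the ratio was 0.95.

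Copies of a gene split in the same way. The COL10A1 IDs had log2 ratios of -1.1, 1.08, 0.41 and 0.05 (SD 0.91, against 3.47 and 3.33 for the genes). The COL2A1 IDs had 1.82, -2.90, -0.54 and 1.92 (ENSDARG00000011407 over ENSDARG00000069093, SD 2.29), COL9A1 over col9a1b 0.14, -1.36, 3.87 and -1.89 (SD 2.60), and COL5A2 over col5a2b 2.93, 1.09, -1.22 and 8.46 (SD 4.13). The value of COL5A2 over col5a2b in B4 rests on 2 counts of col5a2b. The ratio was steadier than both genes for COL1A1 over col1a1a (SD 0.36, against 1.79 and 1.58) and COL11A1 over col11a1b (SD 0.89, against 1.61 and 1.32). It was more variable than both genes for COL14A1 over col14a1b (SD 0.73, against 0.60 and 0.61). For col18a1a over col18a1b it was neither (SD 0.95, against 0.50 and 0.97). In an exact two-sided sign-flip test over 4 libraries no pair can go below p = 0.125, which with adjustment over the 25 pairs gave 0.223 at the smallest, so none of these ratios passed. A ratio of counts also carries the lengths of both transcripts, so a log2 ratio of 0 does not mark equal transcript numbers. The test against 0 and the sign of a ratio are therefore not read as showing which gene was higher, and the ratios are compared by their spread.

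In the RefSeq gene order of the assembly GRCz12tu, which is not that of the files, col4a1 and col4a2, col4a3 and col4a4, and col4a5 and col4a6 are neighbours with 0 protein-coding genes between. The same holds for col9a2 and col16a1, while col6a1 and col6a2, and col9a1b and col19a1, have 1 such gene between. Neighbours did not always have like levels: COL9A2 reached 119 CPM in B2 against at most 23.9 CPM elsewhere, where col16a1 had 47.2 CPM in B2 and 18.2 to 31.9 CPM elsewhere.

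Some markers of bone cells shared the highest and lowest library of the type I and X genes. The osteoblast list (11 IDs, 9 of them at 1 CPM or more in some library) summed to 146, 304, 796 and 84.6 CPM in B1 to B4, highest in B3 and lowest in B4, as type I was. The libraries B1 and B2 did not follow that pattern: the osteoblast sum was higher in B2, the type I sum was higher in B1, and type X was level. Its 2 highest genes by mean CPM were bglap, encoding osteocalcin, with 4.72, 83.1, 347 and 3.40 CPM, and ALPL, an alkaline phosphatase that other tissues also make, with 114, 113, 78.4 and 61.3 CPM. Of its 7 tested genes 5 were highest in B3 and 5 were lowest in B4, against 20.0% and 15.5% of all genes, but these were not the same 5. PHEX was highest in B3 and lowest in B1 (9.73, 15.8, 59.1 and 15.4 CPM). The gene runx2b was highest in B3, close to B1, and lowest in B2 (2.58, 0.108, 2.82 and 0.901 CPM). ALPL and DLX5 (6.24, 5.58, 5.64 and 2.23 CPM) were highest in B1. Of genes chosen after their values were seen, as DLX5 was, spp1, encoding osteopontin, had 3.22, 75.9, 258 and 0.225 CPM, and SP7, the osteoblast transcription factor gene, had 0.205, 0.108, 1.68 and 0.100 CPM. The part of such cells in the type I and X levels was not tested.

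The chondrocyte list (16 IDs, 13 at 1 CPM or more) summed to 1814, 842, 668 and 559.7 CPM. It did not follow the cartilage collagens as a whole, though both sums were lowest in B4. Its 2 highest genes, SOX5 (1236, 177, 196 and 258 CPM) and SOX9 (ENSDARG00000003293, 211, 47.7, 114 and 95.1 CPM), are transcription factors that neural cells also make, and both were highest in B1. Of its 13 tested genes 6 were highest in B1, 5 in B2 and 2 in B3 (46.2%, 38.5% and 15.4%), near the shares of all genes tested (36.0%, 24.8% and 20.0%). Genes for cartilage matrix in the list, named after their values were seen, were mixed. Among them were cnmd, encoding chondromodulin (24.9, 226, 52.2 and 48.5 CPM), epyc, encoding epiphycan (3.75, 130.3, 22.8 and 6.03 CPM), UCMA (1.58, 92.7, 6.73 and 0.450 CPM) and MATN1, encoding matrilin-1 (1.20, 13.2, 98.0 and 0 CPM). The first 3 were highest in B2 and MATN1 in B3. Of the copies for aggrecan, the main cartilage proteoglycan, acana was highest in B2 (8.32, 14.6, 7.71 and 4.15 CPM) and acanb in B1 (69.2, 46.6, 63.2 and 39.4 CPM). The link protein gene hapln1a was highest in B1 too, with 65.6, 34.3, 33.4 and 45.7 CPM.

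Fibroblast markers (17 IDs, 15 at 1 CPM or more) summed to 657, 1551, 1453 and 834 CPM, with DCN, encoding the collagen-binding proteoglycan decorin, at 362, 992, 1103 and 525 CPM and LOXL1 at 112, 116, 59.3 and 57.1 CPM. Of the 14 tested, 10 were highest in B2, against 24.8% of all genes. The notochord list (5 IDs, 4 at 1 CPM or more) summed to 1834, 347, 269 and 255 CPM, of which nog2 made up 1771, 144, 176 and 176 CPM and krt18b 46.3, 187, 70.9 and 58.3 CPM. The pericyte sum was highest in B1, where KCNE4 made up 955 of its 2265 CPM, though 10 of the 18 tested genes were lowest in B1 and 7 highest there (55.6% and 38.9%, against 43.7% and 36.0% of all genes). Its 2 highest genes, KCNE4 (955, 107, 116 and 98.9 CPM) and rgs5b (26.8, 679.6, 204 and 178 CPM), peaked in B1 and B2. The fibroblast sum was 1551 CPM in B2 and 1453 CPM in B3, of which DCN made up 992 and 1103 CPM. DCN was highest in B3, the highest library of the type I sum, but it was the only 1 of the 14 tested. That is 7.14%, against 20.0% of all genes. Of the 14 genes 8 were lowest in B1 (57.1%, against 43.7% of all genes). The notochord and pericyte sums were highest in B1. Of the other lists, smooth muscle markers summed to 347, 630.0, 516 and 483 CPM, endothelial markers to 540.0, 356, 269 and 299.7 CPM and lymphatic and muLEC markers to 352, 272, 238 and 195 CPM. Oligodendrocyte markers summed to 2459.9, 4019, 1789 and 1415 CPM and neuron markers to 824, 176, 178 and 291 CPM. Microglia and macrophage markers summed to 1373, 1326, 1778 and 3384 CPM and epithelial markers to 338, 499, 651 and 583 CPM. Of these 7 lists the epithelial one alone was highest in B3, over a range of 1.93-fold. The part of all these cells in the collagen levels was not tested.

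**Figure D5:**
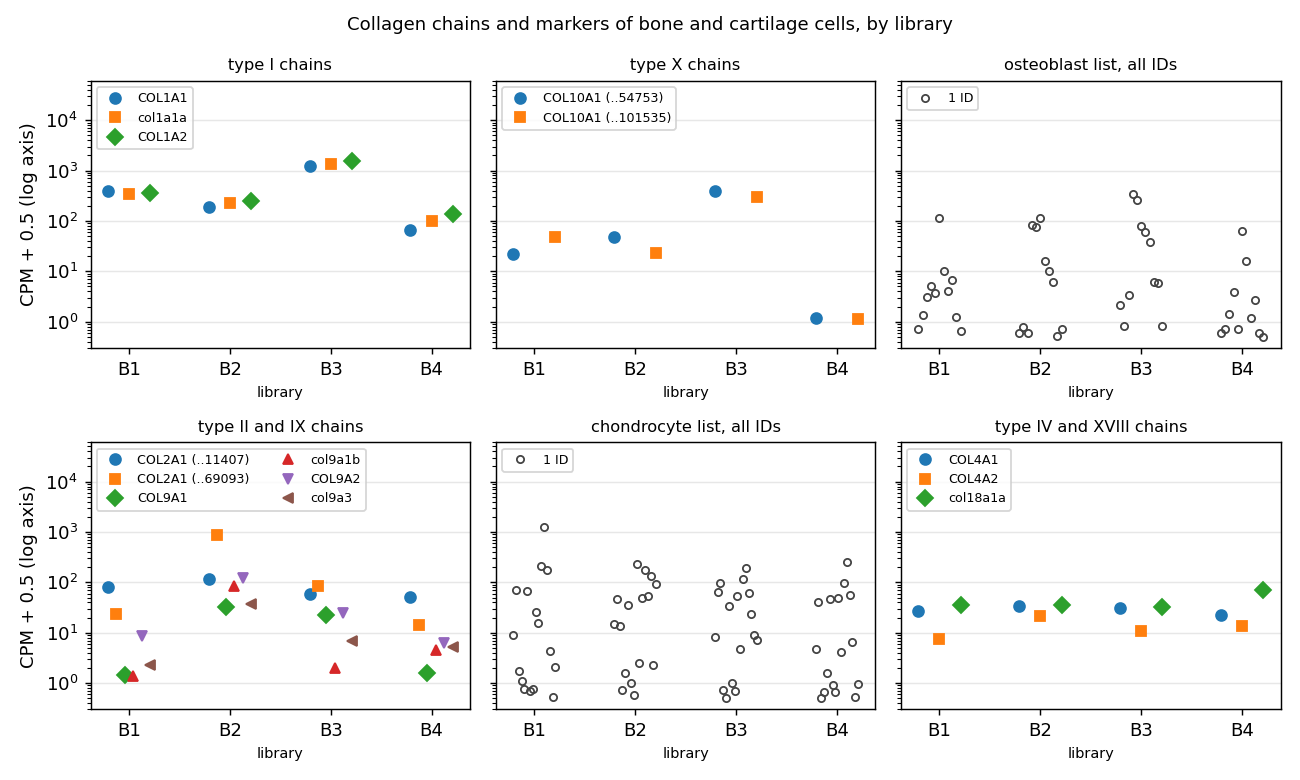
CPM + 0.5 on a log axis of type I, type X, type II and IX, and type IV and XVIII chains (coloured symbols) and of all IDs of the osteoblast and chondrocyte lists (open circles) in libraries B1 to B4. Type I and X chains peak in B3, as do 5 of the 7 tested osteoblast genes, and the type II and IX chains peak in B2. Of the type IV and XVIII chains only COL4A1, COL4A2 and col18a1a are drawn, and these stay within about the same band in all 4 libraries.

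Collagen chains need a set of enzymes and chaperones to fold, and the summed level of this machinery ranged over 1.94-fold. Of the 24 tested genes for synthesis and folding, 12 lay above the reference level and 4 below (edgeR adjusted p under 0.05), or 50.0% and 16.7%, against 36.8% and 33.2% of all genes tested. The list summed to 412, 801, 702 and 709 CPM in B1 to B4. Its 3 highest genes by mean CPM were PPIB, a prolyl isomerase (44.1, 183, 151 and 172 CPM), CRTAP, of the prolyl 3-hydroxylation complex (22.0, 86.4, 77.0 and 81.6 CPM), and P4HB, of prolyl 4-hydroxylase (70.9, 26.1, 45.2 and 42.5 CPM). The lowest tested were the prolyl hydroxylase gene p4ha1a (1.93, 5.66, 5.00 and 3.98 CPM) and the collagen chaperone gene SERPINH1 (ENSDARG00000075954, 0.996, 4.31, 3.27 and 7.98 CPM), both below. This did not hold for other IDs of these genes. SERPINH1 (ENSDARG00000019949) had 10.9, 61.4, 47.1 and 38.7 CPM and lay above (edgeR adjusted p = 0.00330). P4HA1, whose symbol carries no copy suffix, had 4.04, 28.0, 18.7 and 8.78 CPM and passed on neither side. Of the 24 genes 20 were lowest in B1, against 43.7% of all genes, whereas type I was lowest in B4.

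Large procollagens leave the endoplasmic reticulum in enlarged carriers, and the 12 genes of that export list summed to 505, 399.7, 383 and 406 CPM, within 1.32-fold. Of these 7 lay above the reference level and 1, mia2 (5.86, 3.79, 5.39 and 5.13 CPM), below, or 58.3% and 8.33%, against 36.8% and 33.2% of all genes. The highest were the receptor gene mia3 (135, 51.2, 61.3 and 59.4 CPM), the coat GTPase gene sar1b (23.8, 91.2, 90.5 and 94.3 CPM) and the coat gene SEC23B (87.9, 87.3, 48.9 and 74.5 CPM). RGP1 was the second lowest, with 5.13, 10.7, 9.44 and 7.86 CPM.

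Outside the cell, procollagens are trimmed and crosslinked. Of 16 tested genes of that list 7 lay above the reference level and 2 below, or 43.8% and 12.5%, against 36.8% and 33.2% of all genes. The sum was 686, 1351, 1068 and 813 CPM. SPARC, a collagen-binding protein gene, had 113, 610.4, 585 and 379 CPM, and pcolcea, the enhancer of C-proteinase, had 13.4, 413, 131 and 186 CPM. BMP1 (ENSDARG00000028053), the C-proteinase, had 255, 55.0, 71.5 and 51.3 CPM. SPARC and pcolcea were lowest in B1 and highest in B2, and this BMP1 ID was highest in B1. The other BMP1 ID (ENSDARG00000028071) had 16.0, 6.42, 7.29 and 17.7 CPM and was highest in B4. The lowest were ADAMTS3, an N-proteinase gene (2.93, 4.09, 3.44 and 3.20 CPM), and LOXL3, a lysyl oxidase (ENSDARG00000076306, 3.02, 0.190, 2.68 and 0.0751 CPM), both below. The other LOXL3 ID (ENSDARG00000039563) had 13.3, 21.0, 22.8 and 19.8 CPM and lay above (edgeR adjusted p = 0.0341).

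Receptors for collagen had the narrowest range of the 4 pathway lists, with a sum of 237, 240.2, 232 and 215 CPM, within 1.12-fold. Of 15 tested genes 5 lay above the reference level and 4 below, and these 33.3% and 26.7% were near the 36.8% and 33.2% of all genes. The highest were the adhesion receptor gene adgrg1 (72.8, 36.8, 26.3 and 54.8 CPM) and the integrin genes ITGA11 (ENSDARG00000036086, 38.6, 48.1, 46.5 and 46.7 CPM) and ITGB1 (ENSDARG00000104484, 23.7, 33.5, 49.7 and 28.4 CPM). Other IDs with the same symbols were the lowest, ITGB1 (ENSDARG00000053232) at 1.32, 1.62, 1.40 and 0.601 CPM and ITGA11 (ENSDARG00000007950) at 1.17, 0.460, 1.82 and 0.275 CPM. Of the remaining ITGB1 IDs, ENSDARG00000071863 had 31.0, 15.2, 14.0 and 12.0 CPM and passed on neither side. ENSDARG00000022689 had 1.76, 3.33, 3.44 and 1.25 CPM and lay below.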

How the data were processed

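The deposited table holds unnormalized counts in whole numbers for each Ensembl ID, in 4 columns that were used as unnumbered libraries of the single group. A second deposited table holds the YuGene score of each gene, set within each library, which was used only as an alternative when asking which library was highest. The submitters' processing notes name the genome build GRCz10, bcl2fastq and R 3.2.2; which aligner, annotation and counting tool were used, and with what strand setting, is not given in the sources used here. Antisense reads therefore cannot be told from sense reads, and reads amplified with no molecular identifier cannot be taken as separate molecules.

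Symbols were taken from a table that named 26269 of the 32105 IDs. Counts were scaled by TMM in edgeR 4.0.16 (R 4.3.3), with factors of 1.03, 0.948, 1.04 and 0.988. Genes that reached 1 CPM in 2 or more libraries were fitted with a single mean by edgeR's quasi-likelihood method and tested, two-sided, against the median fitted level, with Benjamini-Hochberg adjustment over all 17283 genes at 0.05. The procedure was also run on simulated counts, with results that are not given here. A test per kilobase of coding length had been planned; with no lengths of the files' build it was run on CPM, and for the same reason no sequence is shown. RefSeq gene order came from another assembly and was used for neighbours only. Of the members 10 share a symbol with another ID, and levels of near-identical copies are uncertain where reads could be split between them.

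The members, the classes and 17 lists of cell type and pathway genes (221 of 235 entries matched) were chosen with earlier results of these data known. Every collagen gene with a mean of at least 10 CPM was named, then the 2 next highest of each class. The 3 highest and 2 lowest tested genes of each pathway list and the 2 highest of each cell type list set beside a result were named too. The other IDs of SERPINH1, LOXL3 and BMP1, the remaining IDs of ITGB1, and P4HA1 were added after their values were seen. Gene pairs were compared as log2 ratios of counts within a library, with 0.5 added to each count. Spreads of log2 levels used log2(CPM + 0.5). The SDs of ratios and of levels are therefore not like for like where a gene is near 0, as col5a2b was in B4. Alternatives were DESeq2 size factors, no filter, DESeq2 1.42.0, limma-voom 3.58.1 and leaving out each library.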

Additional observations from a re-analysis of the deposited data

Results flagged for a closer look

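Dixon's test was applied to the 4 libraries of the 27 collagen genes with a mean of at least 10 CPM and of 8 summed levels, and in 10 genes 1 library lay far from the other 3. For normally distributed values chance alone flags about 1 in 20, and the genes are not independent of each other. The test was run on CPM, not on log2 levels. Widely ranging CPM are skewed, which yields high flags more often, so the rate by chance is not known here. In B3, COL1A2 had 1572 CPM against 136 to 356 CPM in the other libraries, col5a2b had 74.5 CPM against 0.0501 to 8.26 CPM, COL10A1 (ENSDARG00000054753) had 393 CPM against 0.676 to 47.1 CPM, and COL10A1 (ENSDARG00000101535) had 296 CPM against 0.651 to 47.0 CPM. In B2, COL2A1 (ENSDARG00000069093) had 886 CPM against 13.5 to 84.9 CPM, col9a1b had 83.7 CPM against 0.879 to 4.1 CPM, COL9A2 had 119 CPM against 5.81 to 23.9 CPM, col9a3 had 37.5 CPM against 1.79 to 6.48 CPM, and col6a1 had 101 CPM against 27.9 to 34.3 CPM. In B4, col18a1a had 68.8 CPM against 32.2 to 35.7 CPM. Each of these was a high value, and B1 gave none.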

How the results depend on the processing

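Of 38 named collagen genes 12 kept their call (above, below or neither at an adjusted p under 0.05) in every setting that gave a value. Some others, such as COL6A3 (0.72 to 2.99 log2 units), kept their side of the reference level but not their call. DESeq2 size factors in edgeR changed no count of calls. With no filter the median gene is a scarcer one, so the reference level is lower by construction. The family then had 31 genes above and 16 below, where 43.5% of all 28308 genes lay above and 40.8% below. Cartilage had 11 above and 0 below, basement membrane 5 and 5, beaded filament 4 above and FACIT 3 above. Transmembrane genes had 1 and 1, fibrillar 2 below and the remaining class 5 below. Of the members 19 were highest in B1 and 16 had a BCV of at least 1. For these last counts no share of all genes without the filter was computed. Without the filter, levels changed sign for col9a3 (2.01 log2 units), col11a1b (1.20), col27a1b (0.33), col4a6 (0.14), col7a1l (ENSDARG00000069692, 0.39), COL6A2 (1.15), col6a4a (1.97), COL12A1 (ENSDARG00000078322, 1.55), COL14A1 (1.79), col23a1b (0.87), col5a3a (0.46), col23a1a (0.75) and COL8A1 (0.85), of which the last 3 passed neither with the filter nor without it. DESeq2 and limma-voom each placed 1 fibrillar gene and 1 gene of the remaining class below, and limma-voom placed 2 cartilage genes above. Of all genes, DESeq2 placed 35.8% above and 37.0% below, and limma-voom 36.2% and 35.4%. The cause was not tested.

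With each library left out in turn, counts above ran from 2 to 7 for cartilage and 1 to 2 for beaded filament, and counts below from 1 to 3 for cartilage, 0 to 1 for beaded filament and 1 to 1 for transmembrane genes. Over all genes tested in these fits, 32.3% to 41.7% lay above and 25.7% to 38.3% below. Of the genes 9 to 13 were highest in B1, 23 to 24 in B2, 8 to 16 in B3 and 3 to 11 in B4, and 2 to 5 had a BCV of at least 1. For these counts no share of all genes was computed, so they are not read against one. The level of COL9A2 ran from -0.10 to 1.98 log2 units and that of col9a1b from -2.63 to 1.24, with the low end of both without B2. The mean log2 ratio ran from -0.21 to 0.52 for the COL10A1 IDs, -0.54 to 1.07 for the COL2A1 IDs, -1.04 to 0.88 for COL9A1 over col9a1b and -0.40 to 0.46 for col15a1b over col18a1b. Fewer libraries leave fewer to be highest or to spread.

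No paired analysis was possible because the samples form a single group. An alternative with and without length could not be run, since CPM without length was itself the measure. At 3 counts, 0.0751 to 0.0879 CPM, members near 0 cannot be told from absent ones.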
